A study of Mus musculus with 15 samples.

Results

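The 40 genes described here encode the machinery by which a nerve terminal stores, docks, primes and fuses synaptic vesicles. They were found as the rows of the deposited count table whose Ensembl identifier, without its version, maps to 1 of 40 gene symbols. All 40 symbols were found, each with 1 row, among 54232 identifiers in the table. All 40 also passed the filter on low counts, which left 18278 genes to test. By role they are 3 synapsins, 4 vesicle membrane proteins, 8 synaptotagmins and related calcium sensors, 8 SNAREs and SNARE regulators, 3 SNARE disassembly genes, 4 priming factors, 6 active zone scaffolds, 3 genes of the Rab3 group and 1 synuclein.

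RNA of the striatum was sequenced from 15 mice aged 6 months: 4 mice of the genotype KI-96, 4 of E1 and 7 WT. The title of the study places the mice among knock-in models of Huntington's disease and concerns toxicity from RAN translation, in which an expanded repeat is translated without a start codon. Beyond the names E1 and KI-96, the alleles are not described in the labels. Each library carries a mouse number of its own, separate from its replicate number within the genotype, and the labels give no treatment, no sex and no batch.

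At a synapse, vesicles filled with transmitter are held near the membrane by synapsins and by scaffold proteins of the active zone. RIM, Munc13 and CAPS proteins bring docked vesicles to a fusion-ready state. The SNARE proteins syntaxin, SNAP-25 and VAMP then zip together, complexins hold and tune the assembly, and synaptotagmins trigger fusion when calcium enters. NSF and the SNAP proteins take the spent SNARE complexes apart so that they can be used again. The striatum receives dense input from cortex and thalamus, but the messenger RNA of these terminals lies mostly in cell bodies outside the striatum, so striatal RNA mainly reports the genes as transcribed by neurons whose bodies lie in the dissected tissue.

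Total counts per library were 14678565 to 23373551 in KI-96, 18199927 to 19533231 in E1 and 17281603 to 26388542 in WT. Levels are given as CPM, read counts relative to the library total after scaling between libraries, and values of single libraries are listed from replicate 1 to replicate 4. Genes that define striatal spiny neurons were high in every library: Drd1, a dopamine receptor, had 162 to 258 CPM in KI-96, 226 to 336 CPM in E1 and 198 to 316 CPM in WT. The mean log2 CPM of 15 such genes was 8.45 to 9.06 in KI-96, 8.69 to 9.29 in E1 and 8.54 to 9.12 in WT. Single genes of the 15 varied more. KI-96 replicate 3 was the lowest library in Penk, at 338 CPM, and the highest in Foxp1, at 418 CPM. Htt, the gene of huntingtin, had 178, 185, 242 and 144 CPM in KI-96, 139.7, 148, 135 and 145 CPM in E1 and 169 to 197 (median 174) CPM in WT. E1 replicates 2 and 3 and WT replicate 3 stood apart in the mean of 15 markers of cortical excitatory neurons. This mean log2 CPM was 5.44, 4.96 and 5.36 there, against 1.87 to 3.09 in the other 12 libraries. Not every marker followed it. Rorb and Cux2 were highest in KI-96 replicate 3, at 46.7 and 50.6 CPM, and Lamp5 in KI-96 replicate 2, at 96.1 CPM. The summed level of the 15 markers was 269 to 364 CPM in KI-96, 246 to 1790 CPM in E1 and 224 to 1582 CPM in WT, and of the 15 only Neurod1 was at 0 in any library, E1 replicate 1. KI-96 replicate 4 was highest in Slc17a6, a glutamate transporter of thalamic neurons, at 46.0 CPM, and 11 markers of thalamus, pallidum and septum summed to 139.8 to 430.1 CPM in KI-96, 108 to 159 CPM in E1 and 110.3 to 197 CPM in WT. In bulk tissue, fewer cells of a type and less RNA per cell cannot be told apart.

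The promoters of 5 genes are shown because the results turn on these genes. Stx1a was high and Unc13c low in the libraries with high cortical markers, and Unc13c was also low in E1 replicate 1, at 177 CPM. Syt2 and Vamp1 were low in E1 replicates 1, 2 and 3, of which replicate 1 did not have high cortical markers. Syn1 is the member whose window held matches to 3 of the 4 motifs searched. Each sequence runs from 250 bases before the annotated start to 50 bases after it, from RefSeq on build GRCm38.p6, and is written along the gene's own strand from 5′ to 3′. Capitals mark matches to the motifs named after the sequences.
Syn1 (ENSMUSG00000037217.15, chrX:20920869-20921168, minus strand): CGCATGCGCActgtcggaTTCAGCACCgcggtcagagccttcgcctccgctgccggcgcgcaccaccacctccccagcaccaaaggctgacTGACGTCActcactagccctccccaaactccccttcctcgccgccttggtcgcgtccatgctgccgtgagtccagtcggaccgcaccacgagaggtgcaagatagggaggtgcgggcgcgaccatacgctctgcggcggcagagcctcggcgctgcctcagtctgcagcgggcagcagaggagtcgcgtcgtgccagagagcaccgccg
Stx1a (ENSMUSG00000007207.10, chr5:135023232-135023531, plus strand): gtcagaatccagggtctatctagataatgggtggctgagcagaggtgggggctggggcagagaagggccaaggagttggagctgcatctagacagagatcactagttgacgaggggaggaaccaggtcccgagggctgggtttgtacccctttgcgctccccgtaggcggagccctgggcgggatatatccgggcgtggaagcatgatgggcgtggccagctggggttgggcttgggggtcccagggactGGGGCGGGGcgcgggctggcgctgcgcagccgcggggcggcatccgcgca
Unc13c (ENSMUSG00000062151.13, chr9:73968988-73969287, minus strand): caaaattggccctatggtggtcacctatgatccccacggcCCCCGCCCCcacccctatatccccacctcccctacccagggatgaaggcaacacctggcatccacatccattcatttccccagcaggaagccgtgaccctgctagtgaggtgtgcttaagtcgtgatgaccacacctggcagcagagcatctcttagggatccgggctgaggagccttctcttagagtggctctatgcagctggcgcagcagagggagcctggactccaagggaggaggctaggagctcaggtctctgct
Syt2 (ENSMUSG00000026452.15, chr1:134646362-134646661, plus strand): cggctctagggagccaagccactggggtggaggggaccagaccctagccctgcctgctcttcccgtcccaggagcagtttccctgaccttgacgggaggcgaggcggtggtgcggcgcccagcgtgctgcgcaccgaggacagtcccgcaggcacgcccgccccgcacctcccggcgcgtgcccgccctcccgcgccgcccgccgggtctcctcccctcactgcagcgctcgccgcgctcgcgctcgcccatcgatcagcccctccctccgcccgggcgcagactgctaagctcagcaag
Vamp1 (ENSMUSG00000030337.16, chr6:125215331-125215630, plus strand): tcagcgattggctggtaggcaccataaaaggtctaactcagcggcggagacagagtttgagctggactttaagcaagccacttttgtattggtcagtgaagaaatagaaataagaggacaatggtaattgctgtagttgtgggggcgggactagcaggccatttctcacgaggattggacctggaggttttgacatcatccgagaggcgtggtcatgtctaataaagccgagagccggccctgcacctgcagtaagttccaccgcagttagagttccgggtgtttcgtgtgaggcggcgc

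Windows of this kind were found for 32 of the 40 genes, 41 windows in all, and 26 of these genes had 1 window. A gene is counted if any of its windows held a match, while the share over all is per window. The 2 measures are therefore not alike. The motifs were searched on both strands and did not overlap each other in the windows printed. TTCAGCACC, the left part of the site of the neuronal silencer REST, was found in the windows of Syn1 and Unc13a and in 0.371% of all 32851 windows. TGACGTCA, the cyclic AMP response element, was found for Syn1 and Napa, against 1.79% of all windows. The site of NRF1, whose match on the opposite strand of Syn1 is the first run of capitals there, was found for Syn1, Bsn and Stxbp5, against 1.00% of all windows. GGGGCGGGG, a GC box, was found for 11 of the 32 genes, Stx1a and Unc13c among them, against 11.4% of all windows. In Syn1 the NRF1, REST and cyclic AMP matches began 250, 232 and 159 bases before the start. The GC box of Unc13c began 210 bases before its start, and that of Stx1a began at the start itself. The Syt2 and Vamp1 windows held none of the 4 motifs, which says only that these letters are not in these windows. The second Syt2 window, at its other annotated start, held none either. The median GC content was 62.3% over the member windows and 52.7% over all windows.

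Taken per kilobase of exon, so that genes can be compared, the 40 genes spanned more than 2 orders of magnitude in WT striatum. Cplx2, the complexin that led the order, had 335 ± 47.6 CPM per kilobase (SD, n = 7), followed by Cplx1 with 264 ± 26.9, the vesicle SNARE Vamp2 with 186 ± 27.2 and the membrane SNARE Snap25 with 177 ± 40.1 CPM per kilobase. Syt11 came next with 173 ± 9.27 and Rab3a with 161 ± 18.5, and each neighbouring pair from Vamp2 to Rab3a differed by less than the larger of its 2 SDs. Sv2a and Syt1 followed with 105 ± 9.61 and 97.4 ± 14.7 CPM per kilobase, which also differed by less than 1 SD. The lowest were Cplx3 with 2.63 ± 1.27, Cadps2 with 2.18 ± 1.97 and Syn3 with 1.35 ± 0.0877 CPM per kilobase. By this measure KI-96 and E1 striatum also had Cplx2 at the top, at 445 ± 198 CPM per kilobase in KI-96 and 326 ± 38.8 in E1 (SD, n = 4 each). Per kilobase of the longest transcript instead of all exons, Vamp2 stood between Cplx2 and Cplx1 in KI-96 and WT, and in E1 it led the order, at 384 ± 79.7 CPM per kilobase against 326 ± 38.8 for Cplx2 (SD, n = 4). Together the 40 genes took 1.29% to 1.48% of all counts in KI-96, 1.16% to 1.56% in E1 and 1.18% to 1.56% in WT.

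**Figure D1:**
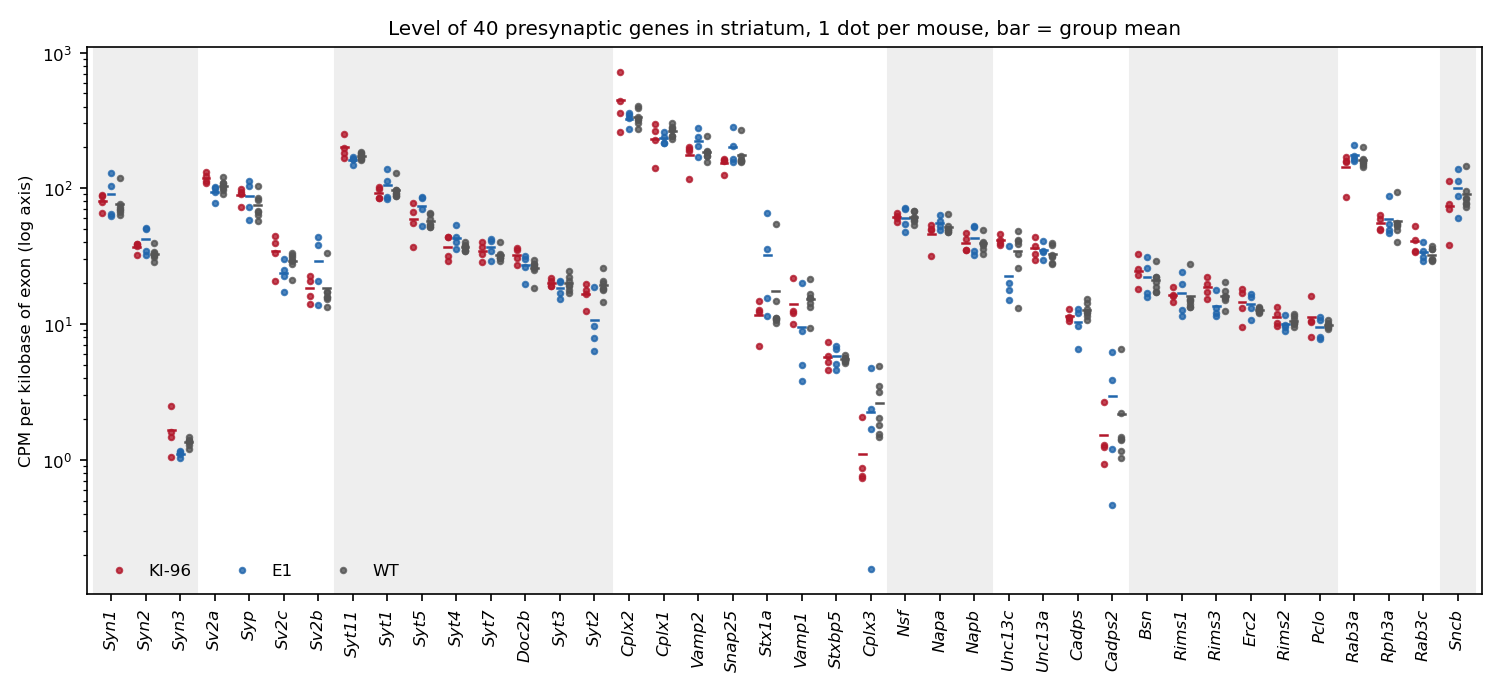
Level of each of the 40 genes in CPM per kilobase of exon on a log axis, with genes grouped by role (alternating grey bands) and sorted by their WT level within a role. Each dot is 1 mouse, bars are group means, and the order within each gene is KI-96, E1, WT. Cplx2 is at the top of all 3 groups and Syn3 at the bottom of WT.

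Within families, per kilobase of exon, the shares of the members were as follows. Vamp2 made up 92.5% ± 2.17 of Vamp1 and Vamp2 together per kilobase in KI-96 (SD, n = 4), 95.6% ± 4.20 in E1 (n = 4) and 92.4% ± 2.08 in WT (n = 7). Among Syt1 and Syt2, which encode the fast calcium sensors, Syt2 had a share of 15.4% ± 3.53 in KI-96, 9.62% ± 5.95 in E1 and 16.7% ± 2.90 in WT. Of the 3 SV2 genes, Sv2a took 69.7% ± 4.26 in KI-96, 64.0% ± 6.61 in E1 and 68.7% ± 2.26 in WT. Of Unc13a and Unc13c together, with Unc13b, which is not among the 40 genes, left out, Unc13c had a share of 53.6% ± 5.99 in KI-96, 38.6% ± 12.3 in E1 and 50.1% ± 12.7 in WT, with a range in WT from 24.8% to 63.5%.

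The design gives 3 comparisons, in each of which a positive log2 fold change means higher in the genotype named first. Each fold change comes from the quasi-likelihood test of edgeR on all 18278 genes, is given with its standard error (SE), and is called where the p adjusted over all these genes is under 0.05. The comparisons share libraries, so their values for a gene are not independent of each other.

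E1 against WT had 0 of the 40 genes called, in a comparison that called 1 gene of 18278 (0.00547%). At an unadjusted p under 0.05 there were 4 of 40, of which Syn2, Sv2b and Syt5 were higher in E1 and Syt2 was lower, against 8.75% of all genes, 3.69% higher and 5.06% lower. DESeq2 called 1 of 40, Syt2 (adjusted p = 0.0464), against 0.337% of all genes it adjusted, and limma-voom called 0 of 40, against 0.0109%. The median log2 fold change of the 40 genes was 0.07, with 24 of 40 positive, beside -0.00 and 49.7% positive over all genes. The 95% interval lay within 1 log2 unit of 0 for 33 of 40 genes. In 1 gene, Syn3, all E1 libraries lay below all WT libraries, against 1.71% of all genes whose libraries did not overlap.

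KI-96 against WT had 0 of 40 genes called, where 0 of all genes (0%) were called. At an unadjusted p under 0.05 there were 2 of 40, Doc2b and Rab3c, both higher in KI-96, against 10.5% of all genes, 5.80% higher and 4.68% lower. DESeq2 and limma-voom also called 0 of 40, against 0.437% and 0% of all genes. The median log2 fold change was 0.03, with 26 of 40 positive, beside -0.01 and 47.9% over all genes. The interval lay within 1 log2 unit of 0 for 37 of 40 genes. No gene of the 40 had groups that did not overlap, against 1.31% of all genes.

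KI-96 against E1 also had 0 of 40 genes called by edgeR, where 0 of all genes (0%) passed. At an unadjusted p under 0.05 there were 8 of 40, against 14.3% of all genes, 7.84% higher and 6.42% lower. Syn3, Sv2a, Sv2c, Syt2, Syt11, Unc13c and Rims3 were higher in KI-96, and Stx1a was lower. DESeq2 called 0 of 40, against 1.13% of all genes, and limma-voom 0 of 40, against 0%. The median was -0.00, with 20 of 40 positive, beside -0.00 and 49.4% over all genes. Intervals lay within 1 log2 unit of 0 for 32 of 40 genes. Sv2a and Unc13c were higher in all KI-96 libraries than in all E1 libraries, 2 of 40 genes against 4.79% of all genes with groups that did not overlap.

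**Figure D2:**
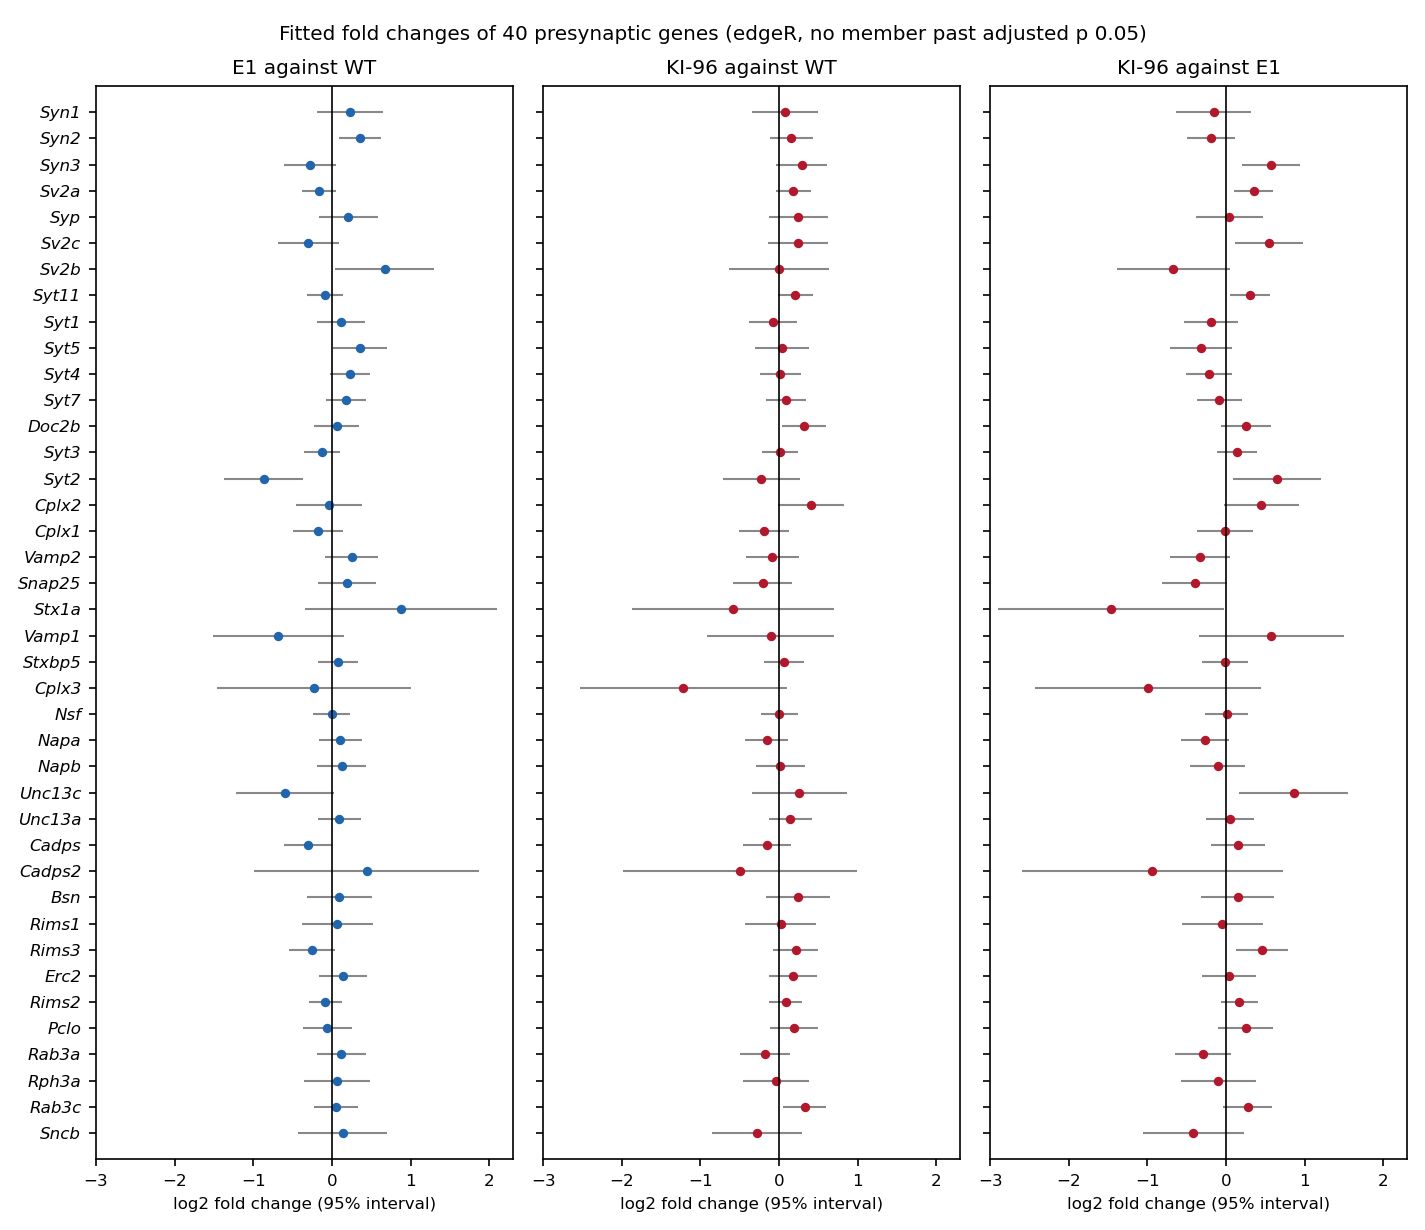
Log2 fold change of each gene (point) with its 95% interval (line) from edgeR for E1 against WT, KI-96 against WT and KI-96 against E1, positive meaning higher in the genotype named first. Most intervals lie close to 0, and those of Stx1a, Cplx3 and Cadps2 are the widest in all 3 panels.

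The synapsins coat vesicles and tether them in a reserve pool. Syn1 had 263, 295, 215 and 289 CPM in the KI-96 libraries, 205, 424, 345 and 213 CPM in the E1 libraries and 208 to 390.4 (median 232) CPM in the WT libraries. The groups overlapped throughout, and the highest values were those of E1 replicates 2 and 3 and WT replicate 3. Its log2 fold change was 0.23 (SE 0.20, adjusted p = 0.733) in E1 against WT, 0.07 (SE 0.20, adjusted p = 0.918) in KI-96 against WT and -0.16 (SE 0.22, adjusted p = 0.762) in KI-96 against E1. Syn2 followed with 225 to 274 CPM in KI-96, 228 to 358 CPM in E1 and 202 to 279.7 CPM in WT, and a fold change of 0.35 (SE 0.13, adjusted p = 0.484) in E1 against WT. Syn3, the rarest of the 3, had 18.1, 19.8, 30.3 and 12.9 CPM in KI-96, 13.6, 12.7, 14.2 and 14.1 CPM in E1 and 14.8 to 18.1 (median 16.7) CPM in WT. Every E1 library was below every WT library, while KI-96 held both the lowest and the highest values outside E1. The fold change of Syn3 was -0.28 (SE 0.16, adjusted p = 0.616) in E1 against WT and 0.57 (SE 0.18, adjusted p = 0.222) in KI-96 against E1. Without KI-96 replicate 4, KI-96 against E1 gave 0.74 (SE 0.15, adjusted p = 0.0443), which passed the threshold as did 0.687% of all genes, and without KI-96 replicate 3 it gave 0.31 (SE 0.13, adjusted p = 0.459). Exons of Timp3 on the opposite strand cover 14.1% of the Syn3 exons, and the strand setting of the counting is unknown, so that Syn3 is uncertain.

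Of the vesicle membrane proteins, Sv2a encodes the SV2 isoform found at most synapses and the target of the anticonvulsant levetiracetam. Sv2a had 571, 519.9, 612 and 505 CPM in KI-96, 358, 468, 434 and 473 CPM in E1 and 422 to 560.0 (median 482) CPM in WT. All KI-96 libraries were above all E1 libraries, and WT lay across both. The log2 fold change of Sv2a was 0.35 (SE 0.12, adjusted p = 0.239) in KI-96 against E1, 0.18 (SE 0.10, adjusted p = 0.542) in KI-96 against WT and -0.16 (SE 0.10, adjusted p = 0.653) in E1 against WT. Sv2b had 189.7, 135, 173 and 117 CPM in KI-96, 173, 369, 321 and 115 CPM in E1 and 112 to 281 (median 133) CPM in WT. E1 replicates 2 and 3 and WT replicate 3, at 281 CPM, were the 3 highest libraries of all 15. The fold change of Sv2b was 0.67 (SE 0.29, adjusted p = 0.535) in E1 against WT, and 0.12 (SE 0.18, adjusted p = 0.968) without those 3 libraries. In KI-96 against E1 it was -0.67 (SE 0.34, adjusted p = 0.383) and in KI-96 against WT 0.00 (SE 0.30, adjusted p = 0.998). Sv2c, an isoform enriched in the basal ganglia, had 382, 321, 433 and 202 CPM in KI-96, 292, 167, 241 and 219 CPM in E1 and 203 to 324 (median 289) CPM in WT. E1 replicate 2 and WT replicate 3 were the lowest of their groups, while E1 replicate 3 was not. Its fold change was 0.54 (SE 0.21, adjusted p = 0.273) in KI-96 against E1. Syp, synaptophysin, had 379 to 519 CPM in KI-96, 306 to 587 CPM in E1 and 300.5 to 546 CPM in WT, and 16.8% of its exons lie opposite exons of Gm14703.

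Syt2, a fast calcium sensor that many inhibitory neurons use in place of Syt1, had the smallest p of the 40 genes in E1 against WT. It had 127, 149.6, 95.3 and 135 CPM in KI-96, 60.4, 73.5, 48.0 and 142 CPM in E1 and 112 to 199 (median 139.8) CPM in WT. Of the 4 E1 libraries, replicates 1, 2 and 3 were below all other libraries, and E1 replicate 4 lay among the WT values. The fold change was -0.87 (SE 0.24, adjusted p = 0.448) in E1 against WT, with a 95% interval of -1.37 to -0.36. In KI-96 against E1 it was 0.65 (SE 0.26, adjusted p = 0.287), and in KI-96 against WT -0.22 (SE 0.23, adjusted p = 0.756). Leaving out E1 replicate 4 gave -1.29 (SE 0.18, adjusted p = 0.00653) in E1 against WT and 1.06 (SE 0.19, adjusted p = 0.0172) in KI-96 against E1, both past the threshold, where 1.38% and 1.02% of all genes passed. Without E1 replicate 3 the fold change in E1 against WT was -0.69, and over all fits with 1 library left out the adjusted p there reached 0.795. Leaving out the 3 libraries with high cortical markers gave -0.56 (SE 0.27, adjusted p = 0.968) in E1 against WT.

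Vamp1, the vesicle SNARE of fast-firing neurons, was low in the same libraries. It had 123, 126, 102 and 221 CPM in KI-96, 38.4, 90.2, 50.9 and 205 CPM in E1 and 95.3 to 218 (median 158) CPM in WT. E1 replicates 1, 2 and 3 were below all KI-96 and all WT libraries, while E1 replicate 4 was above all but KI-96 replicate 4 and WT replicate 4. For Vamp1 the fold change was -0.68 (SE 0.39, adjusted p = 0.620) in E1 against WT, -0.11 (SE 0.38, adjusted p = 0.939) in KI-96 against WT and 0.58 (SE 0.43, adjusted p = 0.543) in KI-96 against E1. Without E1 replicate 4 it was -1.37 (SE 0.30, adjusted p = 0.0422) in E1 against WT, past the threshold, as were 1.38% of all genes. In KI-96 against E1 the same fit gave 1.26 (SE 0.32, adjusted p = 0.0815). Without E1 replicate 1 the fold change of Vamp1 in E1 against WT was -0.42. Over all fits with 1 library left out its adjusted p there reached 0.862. Pvalb, the calcium buffer parvalbumin that marks fast-spiking interneurons and other fast-firing neurons, had 61.7, 55.7, 34.3 and 118 CPM in KI-96, 8.71, 34.0, 17.9 and 123 CPM in E1 and 34.9 to 119 (median 89.7) CPM in WT. The same 3 E1 libraries were the lowest in Pvalb, E1 replicate 2 by the narrow margin of 34.0 CPM against 34.3 CPM in KI-96 replicate 3. E1 replicate 4 was the highest of all 15. The summed level of 13 striatal interneuron markers differed less. It was 314 to 548 CPM in KI-96, 383 to 549 CPM in E1 and 449 to 584 CPM in WT. By mean log2 CPM of the 13, however, E1 replicates 1, 2 and 3 lay below all WT libraries. This mean was 4.00, 4.06, 4.03 and 4.45 in E1 and 4.12 to 4.51 in WT. In KI-96 it was 4.47, 4.44, 3.55 and 4.45. In E1 against WT 3 of the 13 had a positive fold change, beside 49.7% of all genes. Chat, Slc5a7, Slc18a3 and Lhx8, also of the 13, were lower in E1 replicates 1, 2 and 3 than in E1 replicate 4. Chat had 23.2, 19.0, 19.5 and 28.3 CPM in E1 and 23.9 to 36.1 CPM in WT. For Lhx8 the values were 6.97, 6.40, 7.13 and 12.4 CPM in E1 and 6.76 to 16.8 CPM in WT. Some others of the 13 did not follow Pvalb. Pthlh was highest of all 15 libraries in E1 replicate 1, at 13.0 CPM, and Sst and Npy in E1 replicate 2, at 215 and 63.1 CPM. The part of Pvalb-expressing cells, or of other interneurons, in the values of Syt2 and Vamp1 was not tested.

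**Figure D3:**
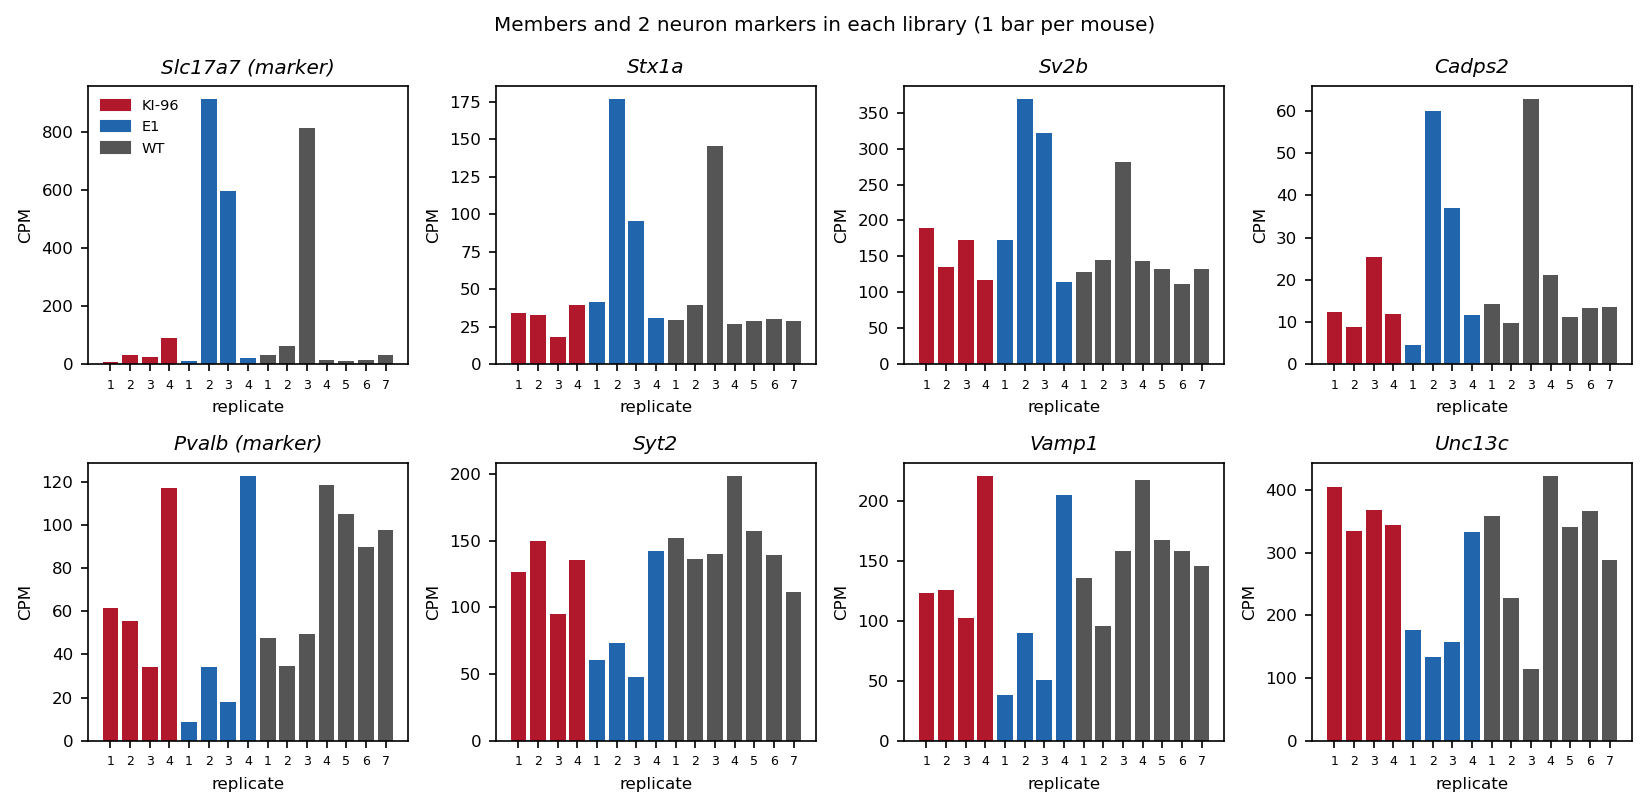
CPM of 6 of the genes and 2 neuron markers, 1 bar per mouse in the order KI-96, E1, WT with replicate numbers below. Upper panels: Slc17a7, a marker of cortical excitatory neurons, and Stx1a, Sv2b and Cadps2 are all highest in E1 replicates 2 and 3 and WT replicate 3. Lower panels: Pvalb, Syt2 and Vamp1 are low in E1 replicates 1, 2 and 3, and Unc13c is low in those and in WT replicate 3.

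The remaining synaptotagmins and Doc2b were nearer to each other between genotypes. Syt11, a synaptotagmin that does not bind calcium in the usual way, had 1039, 946, 1305 and 869 CPM in KI-96, 766, 891, 855 and 861 CPM in E1 and 846 to 967 (median 887) CPM in WT. KI-96 replicate 3 was the highest library, and the groups overlapped. Its fold change was 0.30 (SE 0.12, adjusted p = 0.285) in KI-96 against E1, 0.21 (SE 0.11, adjusted p = 0.505) in KI-96 against WT and -0.09 (SE 0.11, adjusted p = 0.806) in E1 against WT. Doc2b, a high-affinity sensor linked to spontaneous release, had 157, 152, 134 and 119 CPM in KI-96, 132, 85.8, 139 and 115 CPM in E1 and 80.1 to 129 (median 117) CPM in WT. WT replicate 3 and E1 replicate 2 were the lowest, and the groups overlapped. The fold change of Doc2b was 0.31 (SE 0.13, adjusted p = 0.423) in KI-96 against WT, 0.06 (SE 0.14, adjusted p = 0.907) in E1 against WT and 0.25 (SE 0.15, adjusted p = 0.450) in KI-96 against E1. Syt1, the main fast sensor of forebrain neurons, had 702 to 849 CPM in KI-96, 692 to 1158 CPM in E1 and 726 to 1079 CPM in WT. Syt3, Syt4, Syt5 and Syt7 had log2 fold changes between -0.32 (Syt5 in KI-96 against E1) and 0.35 (Syt5 in E1 against WT). Exons of Gm26658 lie opposite 14.5% of the Syt4 exons.

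Stx1a, the syntaxin of the presynaptic membrane, varied widely between libraries. It had 34.0, 32.8, 18.3 and 39.6 CPM in KI-96, 41.1, 177, 95.5 and 30.6 CPM in E1 and 27.0 to 145 (median 29.4) CPM in WT, where WT replicate 3 alone made the maximum. The 3 libraries with high cortical markers had 95.5 to 177 CPM and the other 12 had 18.3 to 41.1 CPM. The fold change was 0.88 (SE 0.56, adjusted p = 0.660) in E1 against WT, -0.59 (SE 0.59, adjusted p = 0.749) in KI-96 against WT and -1.46 (SE 0.66, adjusted p = 0.343) in KI-96 against E1. Without these 3 libraries the fold changes were 0.23 (SE 0.22, adjusted p = 0.968), 0.02 (SE 0.18, adjusted p = 0.973) and -0.20 (SE 0.23, adjusted p = 0.762) in the same order of comparisons. Snap25, the other SNARE of the presynaptic membrane, had 1916 CPM in E1 replicate 2 and 1812 CPM in WT replicate 3, against 856 to 1383 CPM elsewhere. Vamp2, the main vesicle SNARE, had 744, 771, 449 and 717 CPM in KI-96, 775, 1052, 911 and 644 CPM in E1 and 598 to 928 (median 701) CPM in WT, and KI-96 replicate 3 was the lowest of all. Stxbp5, tomosyn, which binds syntaxin and inhibits release, was the steadiest of these genes in WT, at 85.4 to 97.7 CPM, against 75.4 to 121 CPM in KI-96 and 76.1 to 114 CPM in E1.

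Complexins bind the assembled SNAREs. Cplx2 had 2171, 1777, 3549 and 1279.6 CPM in KI-96, 1704, 1778, 1611 and 1340.3 CPM in E1 and 1344 to 1988 (median 1592) CPM in WT. KI-96 replicate 3 was above all others and KI-96 replicate 4 below all others. The fold change was 0.41 (SE 0.20, adjusted p = 0.485) in KI-96 against WT, -0.04 (SE 0.20, adjusted p = 0.969) in E1 against WT and 0.45 (SE 0.23, adjusted p = 0.380) in KI-96 against E1, and in KI-96 against WT it was 0.08 without KI-96 replicate 3 and 0.59 without KI-96 replicate 4. Cplx3, a complexin best known from retinal ribbon synapses, had the fewest reads of the 40 genes, 9 to 269 per library. It had 2.26, 2.57, 2.18 and 6.08 CPM in KI-96, 0.461, 14.1, 6.97 and 4.99 CPM in E1 and 4.35 to 14.5 (median 6.02) CPM in WT. KI-96 replicates 1, 2 and 3 were below all WT libraries, KI-96 replicate 4 was not, and E1 held the lowest value of all and 1 close to the WT maximum. Cplx3 had a fold change of -1.22 (SE 0.61, adjusted p = 0.505) in KI-96 against WT, -0.23 (SE 0.58, adjusted p = 0.926) in E1 against WT and -0.99 (SE 0.67, adjusted p = 0.506) in KI-96 against E1, and without KI-96 replicate 4 the comparison with WT gave -1.73 (SE 0.71, adjusted p = 0.226). Cplx1, the complexin of fast release, had 307 to 647 CPM in KI-96, 475 to 570.3 CPM in E1 and 503 to 666 CPM in WT.

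The SNARE disassembly genes differed little between genotypes. Nsf, the ATPase that pulls SNARE complexes apart, had 548, 522, 470.0 and 501 CPM in KI-96, 400.4, 592, 583 and 457 CPM in E1 and 449 to 567 (median 501) CPM in WT. The groups overlapped, with both extremes in E1, and the means were 510.4 ± 33.1 CPM in KI-96 (SD, n = 4), 508 ± 94.6 CPM in E1 (n = 4) and 509 ± 44.0 CPM in WT (n = 7). The log2 fold change was -0.00 (SE 0.11, adjusted p = 0.996) in E1 against WT, with an interval of -0.24 to 0.24, 0.00 (SE 0.11, adjusted p = 0.994) in KI-96 against WT, with an interval of -0.23 to 0.24, and 0.01 (SE 0.13, adjusted p = 0.988) in KI-96 against E1. Napa and Napb, the SNAP adaptors that recruit NSF, had fold changes from -0.27 (Napa in KI-96 against E1) to 0.13 (Napb in E1 against WT).

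Among the priming factors, Unc13c, the Munc13 isoform best known from cerebellum, separated KI-96 from E1. It had 405, 335, 368 and 345 CPM in KI-96, 177, 133, 157 and 333 CPM in E1 and 115 to 423 (median 342) CPM in WT. All KI-96 libraries were above all E1 libraries, by the narrow margin of 335 CPM in KI-96 replicate 2 against 333 CPM in E1 replicate 4. WT replicate 3 had the lowest value of all, 115 CPM. Unc13c had a fold change of 0.86 (SE 0.33, adjusted p = 0.275) in KI-96 against E1, -0.60 (SE 0.29, adjusted p = 0.587) in E1 against WT and 0.26 (SE 0.29, adjusted p = 0.773) in KI-96 against WT. Without the 3 libraries with high cortical markers it was 0.51 (SE 0.24, adjusted p = 0.473) in KI-96 against E1. Unc13a, the isoform that most forebrain synapses depend on, had 373 to 556 CPM in KI-96, 377 to 519 CPM in E1 and 349 to 498 CPM in WT.

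Cadps and Cadps2 encode CAPS proteins, which prime dense-core and synaptic vesicles. Cadps2 had 12.4, 8.89, 25.4 and 11.9 CPM in KI-96, 4.46, 59.9, 36.9 and 11.5 CPM in E1 and 9.85 to 62.8 (median 13.5) CPM in WT. The 3 libraries with high cortical markers were again the highest, and KI-96 replicate 3 came next. The fold change was 0.44 (SE 0.66, adjusted p = 0.856) in E1 against WT, -0.50 (SE 0.69, adjusted p = 0.828) in KI-96 against WT and -0.94 (SE 0.77, adjusted p = 0.583) in KI-96 against E1, and without these 3 libraries it was -0.80, 0.08 and 0.88, so that all 3 changed sign. Cadps was steadier, with fold changes of -0.30 (SE 0.15, adjusted p = 0.574) in E1 against WT and -0.15 (SE 0.15, adjusted p = 0.738) in KI-96 against WT.

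Of the active zone scaffolds, Bsn and Pclo encode the giant proteins bassoon and piccolo. Bsn had 363, 402, 524 and 289.7 CPM in KI-96, 272, 493, 411 and 250.3 CPM in E1 and 272 to 464 (median 326) CPM in WT. The groups overlapped, with KI-96 replicate 3 highest and E1 replicate 4 lowest. The log2 fold change of Bsn was 0.24 (SE 0.19, adjusted p = 0.680) in KI-96 against WT, 0.09 (SE 0.20, adjusted p = 0.901) in E1 against WT and 0.15 (SE 0.22, adjusted p = 0.781) in KI-96 against E1. All 6 scaffolds had positive fold changes in KI-96 against WT, from 0.02 for Rims1 to 0.24 for Bsn, beside 47.9% positive over all genes, and none was called. Without KI-96 replicate 3 the values of Rims1, Rims2 and Pclo turned negative, at -0.05, -0.01 and -0.03. Rims3, a short RIM protein, had the smallest p of the class, in KI-96 against E1, with a fold change of 0.46 (SE 0.16, adjusted p = 0.243). Pclo and Erc2 were very even in WT, at 206 to 242 and 117 to 130.0 CPM, and more spread in KI-96, at 179.7 to 359 and 92.9 to 177 CPM.

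Rab3a, the main small GTPase of synaptic vesicles, had 352, 346, 192 and 381 CPM in KI-96, 365, 461, 384 and 351 CPM in E1 and 320.4 to 444 (median 349.6) CPM in WT. KI-96 replicate 3 was the lowest library and the other groups overlapped. For Rab3a the fold change was -0.18 (SE 0.15, adjusted p = 0.703) in KI-96 against WT, 0.12 (SE 0.15, adjusted p = 0.816) in E1 against WT and -0.30 (SE 0.17, adjusted p = 0.427) in KI-96 against E1. Rab3c, a close relative, had 505, 417, 636 and 410.0 CPM in KI-96, 350.2, 412, 485 and 375 CPM in E1 and 353 to 452 (median 366) CPM in WT. KI-96 replicates 1 and 3 were above all WT libraries. Its fold change, 0.33 (SE 0.13, adjusted p = 0.395) in KI-96 against WT, had the smallest adjusted p of the 40 genes in that comparison. Without KI-96 replicate 3 it was 0.18. The fold change of Rab3c was 0.28 (SE 0.15, adjusted p = 0.399) in KI-96 against E1 and 0.05 (SE 0.13, adjusted p = 0.925) in E1 against WT. Rph3a, the Rab3 effector rabphilin, was highest in E1 replicate 2 and WT replicate 3, at 405 and 436 CPM. Sncb, which encodes beta-synuclein, a vesicle-associated chaperone, had 152, 164, 81.5 and 243 CPM in KI-96, 130.3, 297, 241 and 187 CPM in E1 and 157 to 312 (median 179.6) CPM in WT. KI-96 replicate 3 was the lowest library of all, and WT replicate 3 the highest. Its fold change was -0.28 (SE 0.27, adjusted p = 0.731) in KI-96 against WT, 0.14 (SE 0.27, adjusted p = 0.892) in E1 against WT and -0.42 (SE 0.30, adjusted p = 0.529) in KI-96 against E1.

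Of the 3 libraries with high cortical markers, WT replicate 3 and E1 replicate 2 were often the extremes of their groups for these genes, and E1 replicate 3 was not. WT replicate 3 was the highest WT library for 27 of the 40 genes and the lowest for 4, Syn3, Sv2c, Doc2b and Unc13c. Over all genes it was highest for 20.7% and lowest for 22.1%. E1 replicate 2 was the highest E1 library for 24 of 40 genes and the lowest for 5, against 23.5% and 25.8% of all genes. E1 replicate 3 was highest for 10 and lowest for 4, against 24.3% and 25.6% of all genes. Only 1 library of a group can be its highest, so these counts do not show whether E1 replicate 3 was shifted too. The mean log2 CPM of the 40 genes was 7.27, 7.92, 7.75 and 7.49 in E1 replicates 1 to 4. The SD of log2 CPM of the median gene among the 40 was 0.283 in KI-96, 0.319 in E1 and 0.196 in WT, and 0.118 in WT without replicate 3. Over all genes these were 0.310 in KI-96, 0.234 in E1 and 0.215 in WT, and 0.194 without WT replicate 3. Slc17a7, the vesicular glutamate transporter of cortical neurons, had 914 and 597 CPM in E1 replicates 2 and 3 and 816 CPM in WT replicate 3, against 5.97 to 91.0 CPM in the other 12 libraries. Without these 3 libraries the median log2 fold change of the 40 genes was -0.13 in E1 against WT (11 of 40 positive), 0.10 in KI-96 against WT (29 positive) and 0.24 in KI-96 against E1 (32 positive). Over all genes it was -0.01, -0.01 and 0.00 in the same order, with 48.1%, 48.0% and 50.2% positive. Still 0 of 40 genes, and 0 of all 19172 genes tested, were called by edgeR in each comparison. At an unadjusted p under 0.05 there were 3, 7 and 10 of 40, against 3.99%, 10.8% and 10.7% of all genes. With the mean cortical marker level as a covariate the medians were -0.08, 0.10 and 0.17 in the same order, and 0 of 40 were called. The part of cortical cells in these values was not tested beyond these 2 fits.

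**Figure D4:**
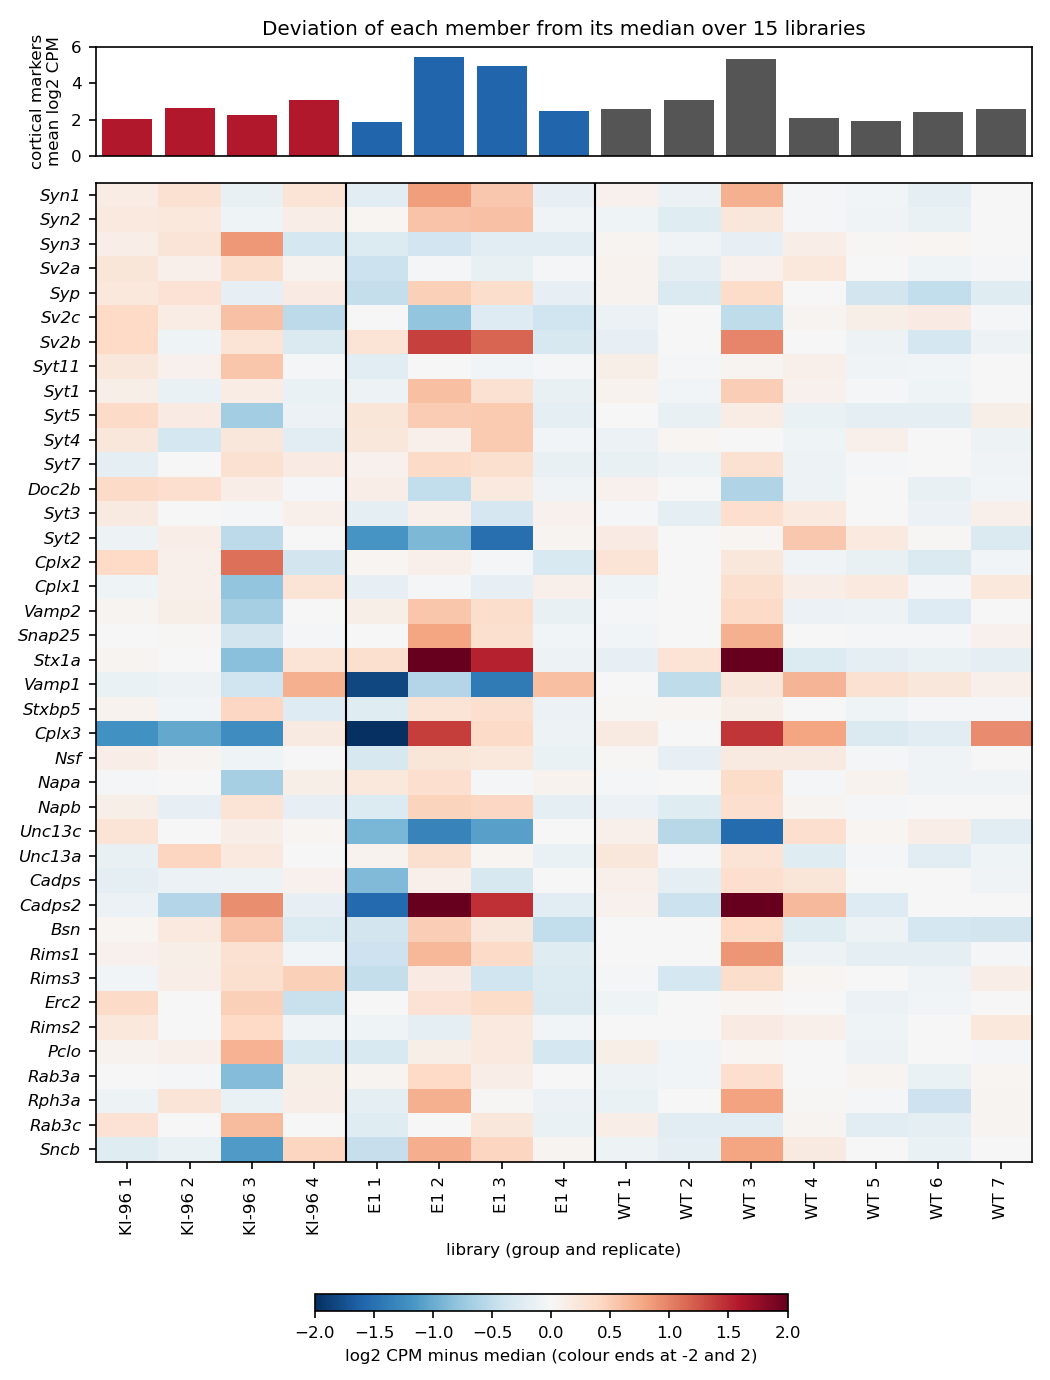
Upper panel: mean log2 CPM of 15 cortical excitatory neuron markers in each library (bars, KI-96 then E1 then WT). Lower panel: log2 CPM of each gene (rows, grouped by role) minus its median over the 15 libraries, with red above and blue below and colours ending at -2 and 2. The columns of E1 replicates 2 and 3 and WT replicate 3 are red for Stx1a, Sv2b and Cadps2 and blue for Unc13c, and KI-96 replicate 3 is red for Cplx2 and blue for Rab3a and Sncb.

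KI-96 replicate 3 held the highest KI-96 value for 17 of the 40 genes and the lowest for another 17, against 33.1% and 34.7% of all genes. Its pattern ran with transcript length. Set against the mean of the other 3 KI-96 libraries on the log2 scale, Sncb, whose longest transcript has 1351 bases, differed by -1.16 and Rab3a (1556 bases) by -0.90. At the other end, Pclo (20084 bases) differed by 0.74 and Bsn (15938 bases) by 0.59. The largest positive values were those of Cadps2, 1.21, and Cplx2, 1.06, both with transcripts near the middle of the range. Spearman's rho between these differences and the longest transcript was 0.69 across the 40 genes and 0.32 across 18265 genes of the same library. For other libraries, each set against the rest of its own genotype, rho over the 40 genes lay between -0.53 (KI-96 replicate 4) and 0.41 (WT replicate 6). The values of KI-96 replicates 1, 2 and 4, -0.35, -0.34 and -0.53, are not independent of replicate 3, which is part of the mean they are set against. These are correlations across genes of 1 library, which are not replicates. Without KI-96 replicate 3 the log2 fold change in KI-96 against WT was -0.06 for Sncb, 0.00 for Rab3a, 0.08 for Cplx2 and 0.07 for Bsn. RNA quality is not given in the labels, and the part of RNA length in these values was not tested.

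**Figure D5:**
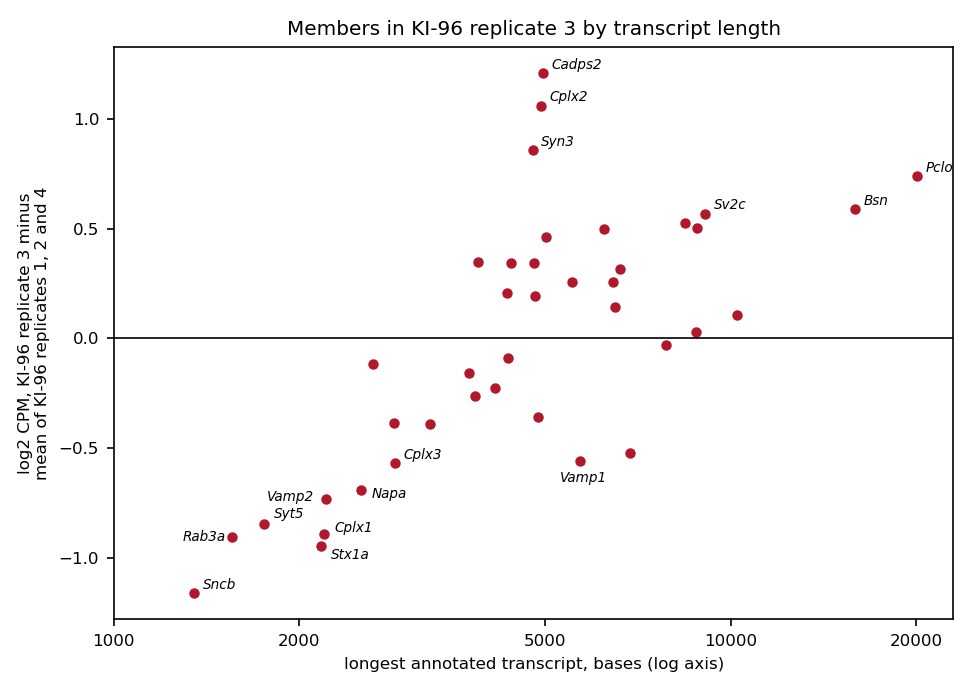
Log2 CPM of each of the 40 genes in KI-96 replicate 3 minus the mean of KI-96 replicates 1, 2 and 4 (vertical axis) by the length of its longest annotated transcript (horizontal, log axis). Each point is 1 gene. Genes with the shortest transcripts, Sncb, Rab3a and Syt5, lie below 0, and those with the longest, Bsn and Pclo, lie above.

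Of 99 further genes of the presynaptic terminal, 98 passed the filter, all but Cplx4. In E1 against WT, KI-96 against WT and KI-96 against E1 alike 0 of 98 were called by edgeR, against 0.00547%, 0% and 0% of all genes. At an unadjusted p under 0.05 there were 9, 6 and 11 of 98, against 8.75%, 10.5% and 14.3% of all genes. The medians were 0.03, 0.05 and 0.03 in the same order, beside -0.00, -0.01 and -0.00 over all genes. Slc17a7 and Slc17a6, both glutamate transporters, had the widest fold changes in KI-96 against WT and in KI-96 against E1. In E1 against WT this held for Slc17a7 only. Slc17a7 had 1.46 (SE 1.41, adjusted p = 0.766) in E1 against WT, -1.87 (SE 1.58, adjusted p = 0.702) in KI-96 against WT and -3.33 (SE 1.79, adjusted p = 0.413) in KI-96 against E1. Slc17a6 had -0.45 (SE 0.84, adjusted p = 0.884) in E1 against WT, 1.24 (SE 0.78, adjusted p = 0.600) in KI-96 against WT and 1.69 (SE 0.94, adjusted p = 0.425) in KI-96 against E1, where KI-96 replicate 4 had 46.0 CPM, KI-96 replicate 3 had 19.2 CPM and all other libraries had 0.769 to 14.3 CPM. Doc2a, a relative of Doc2b, came after Slc17a7 in E1 against WT, at 1.14 (SE 0.61, adjusted p = 0.606). The largest fall there was that of Syt10, at -0.47 (SE 0.42, adjusted p = 0.745). In KI-96 against WT the next were Syt9, at 0.52 (SE 0.12, adjusted p = 0.241), and the syntaxin Stx3, at -0.47 (SE 0.14, adjusted p = 0.313). Syt9, a fast calcium sensor known from striatal and limbic neurons, had 18.0, 17.6, 23.1 and 24.5 CPM in KI-96, 18.3, 18.2, 18.5 and 15.9 CPM in E1 and 12.6 to 18.0 (median 14.1) CPM in WT, with KI-96 replicates 3 and 4 above all WT libraries. In KI-96 against E1 they were Syt10, at 0.90 (SE 0.46, adjusted p = 0.390), and Syt17, at -1.31 (SE 0.50, adjusted p = 0.279).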

How the data were processed

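Striatal RNA of 15 mice was sequenced, 4 KI-96, 4 E1 and 7 WT, and the groups were taken from the genotype in the labels. The authors deposited 1 table of raw counts per gene, for which the submitters' processing notes name STAR, HTSeq, DESeq2 1.24.0 and build GRCm38. Not given in the sources used here are the annotation release and the strand setting of the counting. Symbols, exon lengths and transcript lengths came from GENCODE M21 on GRCm38, where 54165 of 54232 identifiers matched without their version and 52566 with it. Promoter windows came from RefSeq on GRCm38.p6.

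Genes were kept by edgeR's filterByExpr with a minimum count of 10. The counts of all 15 libraries were scaled by TMM and fitted together with edgeR 4.0.16 (R 4.3.3, robust quasi-likelihood test), and p-values were adjusted by the Benjamini-Hochberg method over all 18278 genes. CPM used scaled library sizes, and log2 CPM a prior count of 2. DESeq2 1.42.0, limma-voom (limma 3.58.1), relative log expression size factors, no filter, fits of only the 2 groups compared, each library left out in turn, a replicate block, a cortical marker covariate and a fit without the 3 libraries with high cortical markers were the alternatives. The test scripts were tested on simulated data. P-values weigh the difference between group means against the spread between mice, and intervals assume these models.

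The members and all gene lists were chosen with earlier results of these data known. Described per library are, for each comparison, the 3 genes with the largest positive and the 3 with the largest negative log2 fold change, any gene past the threshold (there was none), and the gene with the highest CPM per kilobase of each role class. Others are given as ranges or where an alternative or an unadjusted p singles them out, and were chosen after their values were seen. From the wider lists the 2 largest fold changes in each direction are given.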

Additional observations from a re-analysis of the deposited data

Results flagged for a closer look

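In 18 of 120 groups of log2 CPM values (40 genes in 3 genotypes) 1 library stood apart from the others of its genotype by Dixon's test for 1 distant value at the 95% level. Chance gives about 1 in 20 groups, and values of 1 library are not independent of each other. The share over all genes by this test is not given, so the count does not set the 40 genes apart from other genes. All but 3 of the 18 were WT replicate 3, 1 of the libraries with high cortical markers. It was far above the other WT libraries for Syn1 (8.61 log2 CPM), Sv2b (8.14), Syt1 (10.1), Syt7 (8.24), Snap25 (10.8), Stx1a (7.18), Vamp2 (9.86), Napa (7.93), Cadps2 (5.97), Rims1 (7.68), Rab3a (8.80), Rph3a (8.77) and Sncb (8.29). It was far below them for Sv2c (7.67 log2 CPM) and Doc2b (6.33). KI-96 replicate 3 was far below the other KI-96 libraries for Vamp2 (8.81 log2 CPM) and Rab3a (7.58), and KI-96 replicate 4 was far above them for Cplx3 (2.63).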

How the results depend on the processing

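The count of 0 of 40 genes called held in all 3 comparisons with limma-voom, relative log expression size factors, no filter, only the 2 groups compared, and, with cortical markers in view, both with their mean as a covariate and with the 3 highest libraries left out. With DESeq2 it was 1 in E1 against WT and 0 in the others. Leaving out each library in turn, it was 0 to 2 in E1 against WT, 0 in KI-96 against WT and 0 to 1 in KI-96 against E1. Over these fits the median log2 fold change of the 40 genes was -0.06 to 0.16, 0.01 to 0.11 and -0.10 to 0.11. Without the 3 libraries with high cortical markers it was 0.24 in KI-96 against E1, outside the range from leaving out single libraries, and the cause was not tested. Over all genes, the number called was 1, 0 and 0 with edgeR, 58, 72 and 206 with DESeq2, 2, 0 and 0 with limma-voom, 0, 1 and 3 without a filter, 0 in each with only the 2 groups compared, and 0 to 257, 0 to 11 and 0 to 190 when 1 library was left out. The main fit did not treat same-numbered libraries as paired. Of 12 same-numbered pairs, 5 had a correlation of deviations over 0.1, with a range of -0.10 to 0.19. Pairs with unlike numbers ran from -0.36 to 0.54. Of 12 libraries, 5 correlated best with their own number. These values do not settle whether the numbers mark pairs. With the replicate number as a block, 0 of 40 genes were called in each comparison, with medians of -0.01, -0.00 and 0.01, and 4, 6 and 0 of all genes were called. With 4 mice in KI-96 and in E1, 1 library can decide a value, and the gene with the fewest reads, Cplx3, rests on 9 to 269 reads per library.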
